A study of Mus musculus with 12 samples.

Results

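The expression of 10 genes of basophils and mast cells, Prss34, Mcpt8, Fcer1a, Ms4a2, Cpa3, Gata2, Hdc, Cd200r3, Il3ra and Kit, was followed through cultures of mouse CD4+ T cells. They make up 10 of the 45777 genes listed for these libraries, and each was found by its symbol. They were chosen by their levels under the 4 treatments, so those levels are given as a description. How many passed the threshold of the fit across all genes is set beside the share of all genes that did, and is no independent test of them. The cells were CD4+ T cells from the spleen of wild type C57BL/6 mice aged 7 weeks, and every group received anti-CD3 at 0.5 µg/ml for 3 days. Control cultures had no drug, and the others had Metformin, FK506, or both drugs together (Metformin+FK506, also called the combination). FK506, or tacrolimus, inhibits the phosphatase calcineurin and thereby the NFAT transcription factors, and metformin is a diabetes drug that acts on mitochondrial respiration. Each group had 3 libraries of poly(A) RNA, and the sources used here give neither the drug doses nor whether replicates came from separate mice or cultures. P-values therefore measure the spread between these libraries, which may be technical.

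Basophils and mast cells are rare granulocytes of allergic and antiparasite responses. Both bind IgE through the receptor FcεRI, made of the IgE-binding alpha chain (Fcer1a), the signal-amplifying beta chain (Ms4a2) and a gamma chain shared with other receptors (Fcer1g), and both store histamine. Mouse basophils grow with IL-3 and carry the serine proteases of Mcpt8 and Prss34, whereas mast cells depend on stem cell factor and its receptor Kit and carry chymases and tryptases. T cells are a known source of IL-3, and GATA2 is a transcription factor that both lineages need. Several of the genes are also used elsewhere: Kit and Gata2 by blood progenitors, Il3ra by several myeloid cells.

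Prss34, Mcpt8 and Cpa3, the genes of secreted or granule enzymes, had means of 4.85, 2.91 and 0.875 FPKM with FK506 and no counts in the combination. Kit and Gata2 were high with FK506 both with and without metformin. Il3ra and Hdc were expressed in every library, and their group means lay within a factor of 2 of each other. The IgE receptor chains Fcer1a and Ms4a2 were low throughout. In bulk RNA of this kind, fewer cells of a type cannot be told apart from less RNA per cell.

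The promoters of Prss34, Cpa3 and Ms4a2 are shown because these 3 genes had counts in every FK506 library, none in the combination, and a GATA word in the window searched. The sequences are from RefSeq, build GRCm38.p6, read 5′ to 3′ on the strand of the gene, and end at the base before the annotated gene span. Capitals mark the GATA word, which in the Ms4a2 sequence lies on the other strand.
Prss34, chr17:25298144-25298393, plus strand: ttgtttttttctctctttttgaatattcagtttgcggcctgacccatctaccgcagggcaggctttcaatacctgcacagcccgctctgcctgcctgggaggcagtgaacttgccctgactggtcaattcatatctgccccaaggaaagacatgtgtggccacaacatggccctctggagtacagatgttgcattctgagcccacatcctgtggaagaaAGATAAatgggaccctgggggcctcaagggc
Cpa3, chr3:20242210-20242431, minus strand: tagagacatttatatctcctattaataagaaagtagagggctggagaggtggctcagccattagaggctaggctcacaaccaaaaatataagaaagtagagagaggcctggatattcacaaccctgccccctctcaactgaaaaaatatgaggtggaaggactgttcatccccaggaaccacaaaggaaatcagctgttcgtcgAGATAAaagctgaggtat
Ms4a2, chr19:11623791-11623969, minus strand: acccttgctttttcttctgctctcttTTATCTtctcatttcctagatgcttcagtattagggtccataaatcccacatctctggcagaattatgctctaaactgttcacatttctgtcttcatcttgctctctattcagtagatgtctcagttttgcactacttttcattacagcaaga

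The 250 bases before each start were searched on both strands for letters that GATA factors can bind, namely AGATAA and its variant TGATAA, together with the forms that end in G, written AGATAG for the first and TGATAG for the second. Of the 10 genes, 7 held such a word (Prss34, Fcer1a, Ms4a2, Cpa3, Hdc, Cd200r3 and Il3ra), against 26.5% of 32851 windows of the same length. The words in the printed sequences begin 31 bases before the start site in Prss34, 46 in Cpa3 and 224 in Ms4a2, the latter 2 counted from a start site inside the gene span. The Ms4a2 window holds 3 such words, of which 1 lies in the printed stretch. For other words, TGTGGT (RUNX) was found in 3 of the 10 genes and in 14.0% of all windows, and CANNTG (the E-box) in 6 and in 66.2%. GGAAAA (NFAT) was found in 0 of the 10 and in 20.4% of windows, and TTCNNNGAA (STAT) in 0 and in 7.02%. A match is a match of letters and no evidence of binding, and no match says nothing of the factor.

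Depth ran from 43402632 to 64290105 counted reads per library. Levels are given in FPKM, fragments scaled to transcript length and library size, which allows genes to be set side by side. Genes were tested across the whole table if they reached 0.5 FPKM in at least 3 of the 12 libraries, which held for 15197 genes and for 6 of the 10 described here (Prss34, Mcpt8, Gata2, Hdc, Il3ra and Kit). Prss34 and Mcpt8 met that minimum through the FK506 group alone, and Gata2 and Kit only through the 6 FK506 and combination libraries. Cpa3 fell just short of it with 2 libraries, Cd200r3 reached 0.5 FPKM in 1, and Fcer1a and Ms4a2 in 0. The floor of a group was set at 3 counts in each of its libraries. Where a gene did not exceed it, folds were computed against 3 counts per library and are written as at least so many, a limit that allows for counting error and nothing else. Other fold changes are log2 values of edgeR's fit with their standard errors.

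Many of the genes tested differed between drug-treated and Control cells, so the count of these 10 genes past the threshold is read against that background. With FK506 against Control, 4 of the 6 genes in the fit were higher (Prss34, Mcpt8, Gata2, Kit) and 1 was lower (Il3ra), while 80.9% of all genes tested passed the adjusted p of 0.05, 41.3% higher and 39.6% lower. Of the genes that passed, 51.1% were higher, and 61.3% when log2(FPKM + 1) was tested in place of counts. Metformin against Control had 1 of the 6 higher (Il3ra), beside 56.0% of all genes past the threshold (28.6% higher, 27.4% lower). The combination against Control had 2 higher (Gata2, Kit) and 2 lower (Hdc, Il3ra), beside 81.7% (42.1% higher, 39.6% lower). Against FK506 the combination had 3 lower (Prss34, Mcpt8, Kit), beside 30.7% (15.6% higher, 15.0% lower). Against Metformin it had 2 higher (Gata2, Kit) and 2 lower (Hdc, Il3ra), beside 78.2% (40.3% higher, 37.9% lower). Prss34, Mcpt8, Gata2 and Kit entered the fit only through libraries with FK506. Their direction against Control or Metformin was thus largely fixed by the filter. The same holds for Prss34 and Mcpt8 in the combination against FK506. By the plainer criterion that the libraries of the groups do not overlap, 4 of the 6 genes were apart in FK506 against Control and 84.4% of all genes tested were. The same held for 1 of 6 in Metformin against Control (65.0% of all genes), 4 of 6 in the combination against Control (82.0%), 3 of 6 against FK506 (38.6%) and 3 of 6 against Metformin (78.2%). Without the filter on low values, 27636 genes were tested. The number of the 10 past the threshold was then 8 for FK506 against Control (51.4% of all genes), 2 for Metformin against Control (30.7%), 6 for the combination against Control (52.2%), 5 for the combination against FK506 (15.2%) and 6 for the combination against Metformin (49.7%). Of the calls above, Kit in the combination against FK506 was lost with DESeq2, and Hdc in the combination against Metformin was lost in several settings, among them without Metformin replicate 1 or 3 and without Metformin+FK506 replicate 2 or 3.

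**Figure D1:**
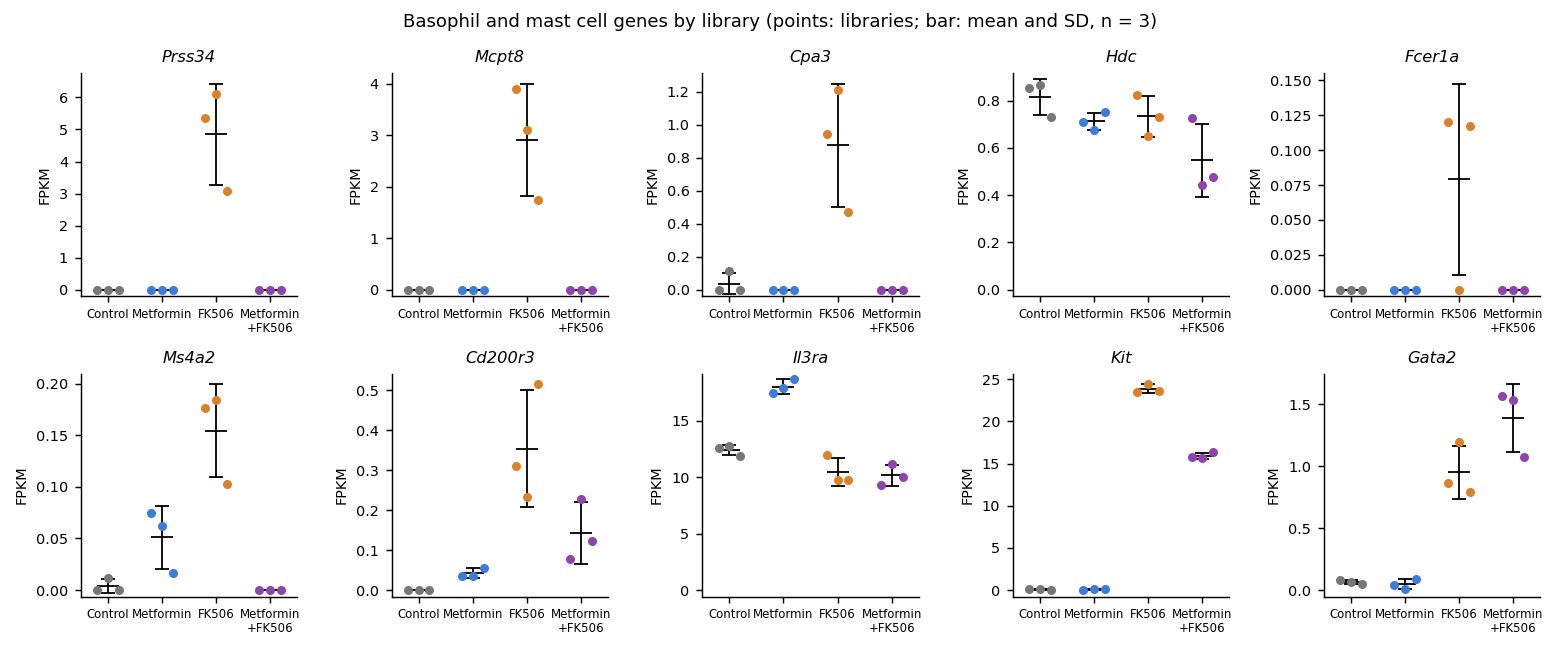
FPKM (vertical axis, linear, a separate scale for each gene) of the 10 genes in the 12 libraries, by treatment; points are libraries and bars the mean and SD of 3. Prss34, Mcpt8 and Cpa3 have points well above 0 with FK506 and lie at 0 in the combination, whereas Kit and Gata2 are high in both FK506-treated groups.

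The bound on the difference between FK506 alone and the combination was highest for Prss34, the gene of a serine protease of basophils (chr17:25298394-25300168). It had 5.36, 6.11 and 3.07 FPKM in the FK506 libraries, a mean of 4.85 ± 1.58 (SD, n = 3), from 442, 474 and 187 counts. The Control, Metformin and Metformin+FK506 libraries had 0 counts each, 9 libraries in all. The FK506 level was at least 98.0-fold higher than Control, and the combination was at least 109-fold lower than FK506. At the rate of the FK506 libraries, the combination libraries together would have held 1036 counts of Prss34.

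Mcpt8, which encodes a granule protease used as a marker of mouse basophils (chr14:56082163-56085499), followed the same order. Its FPKM was 3.89, 3.10 and 1.73 with FK506, a mean of 2.91 ± 1.09 (SD, n = 3), from 228, 168 and 73 counts. The other 9 libraries had 0 counts. FK506 was at least 41.3-fold higher than Control and the combination at least 45.8-fold lower than FK506, with 440.4 counts to be expected in the combination at the FK506 rate. Both proteases thus lay above 0 in every FK506 library and at 0 in every library of the other groups.

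Cpa3, the carboxypeptidase stored with histamine in mast cell granules and also made by basophils (chr3:20215616-20242209), was lower than the proteases. FK506 libraries had 0.944, 1.21 and 0.471 FPKM from 95, 112 and 35 counts. Control replicate 2 had 0.114 FPKM from 10 counts, and the other Control libraries and every Metformin and combination library had 0. The combination was at least 23.7-fold lower than FK506, against 227.2 counts to be expected at the FK506 rate.

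FK506 replicate 3 was the lowest library of its group for the 3 enzyme genes, at 0.535 of the mean of replicates 1 and 2 for Prss34, 0.496 for Mcpt8 and 0.437 for Cpa3. Ms4a2 stood at 0.568 and Gata2 at 0.772, whereas Kit was at 0.987 and Cd200r3, at 1.90, was highest in that library. Among 3592 genes with a mean FK506 count of 50 to 500, the same ratio had a median of 0.989, and its central 95 percent of values ran from 0.592 to 1.56. With 1 library left out, the bounds against the combination ran from 94.5-fold to 128-fold for Prss34, from 37.9-fold to 55.1-fold for Mcpt8 and from 19.4-fold to 29.0-fold for Cpa3. The highest were without FK506 replicate 3, and the lowest without FK506 replicate 1 for Mcpt8 and without FK506 replicate 2 for the others.

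An exact 0 beside high values was uncommon within groups: among 14205 genes with at least 50 counts in 2 combination libraries, 15 had 0 in the remaining library. This check sets a single library against its replicates. It cannot speak to Prss34, Mcpt8 and Cpa3, which were at 0 in every combination library.

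Hdc, histidine decarboxylase, makes histamine from histidine (chr2:126593659-126624025). It was expressed at a similar low level everywhere, with 0.852, 0.866 and 0.729 FPKM in Control, 0.708, 0.677 and 0.751 with Metformin, and 0.823, 0.649 and 0.732 with FK506. The combination had 0.725, 0.444 and 0.476 FPKM, so 2 of its 3 libraries were the lowest of the 12 and the difference from FK506 was wider, at -0.65, without Metformin+FK506 replicate 1. In that setting Hdc passed the threshold as lower than with FK506, which it did not with every library. The log2 difference was -0.35 (SE 0.21) for FK506 against Control and -0.40 (SE 0.21) for the combination against FK506. The histamine-forming gene was thus detected in every library, with or without counts of the granule enzymes.

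The IgE-binding alpha chain gene Fcer1a (chr1:173221269-173227232) was barely detected. FK506 replicates 1 and 3 had 9 and 6 counts, or 0.120 and 0.117 FPKM, and the other 10 libraries had 0. Such counts are close to the floor, and at the FK506 rate 14.0 counts would have been seen in the combination.

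Ms4a2, the beta chain of the same receptor (chr19:11615517-11623790), had 0.177, 0.184 and 0.103 FPKM with FK506 from 34, 33 and 15 counts. Metformin libraries had 0.0743, 0.0625 and 0.0168 FPKM from 12, 10 and 3 counts, Control had 3 counts in 1 library, and the combination had 0 in each. The combination was at least 8.11-fold lower than FK506 and at least 3.07-fold lower than Metformin. FK506 and Metformin libraries did not overlap, and each Metformin library had at least 3 counts where the combination had 0. These levels are far below those of T cell genes and rest on few reads.

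Cd200r3, an activating receptor of basophils and mast cells in the CD200 receptor family (chr16:44943596-45058365), had 0 counts in Control and 0.0362, 0.0341 and 0.0559 FPKM with Metformin. FK506 libraries had 0.311, 0.232 and 0.515 FPKM and combination libraries 0.0771, 0.228 and 0.123, so the groups did not overlap in FPKM. In TMM-scaled CPM (counts per library size) they did, with 1.08, 0.791 and 1.59 for FK506 and 0.275, 0.846 and 0.434 for the combination. Summed, the combination held 93 counts against 188.7 to be expected at the FK506 rate. Unlike the enzyme genes, Cd200r3 thus remained detectable in the combination, at least 8.55-fold above Control. How the authors' counting divided reads shared by related genes is not stated, so values of Cd200r3 and of the protease and Fc receptor families are uncertain to that degree.

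Il3ra, the alpha chain of the IL-3 receptor (chr14:14345912-14355493), was present at 9.30 to 18.7 FPKM in the 12 libraries. Control had 12.6, 12.8 and 11.9 FPKM, Metformin 17.4, 17.9 and 18.7, FK506 11.9, 9.71 and 9.73, and the combination 9.30, 11.2 and 9.97. Metformin was highest without overlap, and the FK506 and combination groups overlapped. The log2 difference was 0.46 (SE 0.068) for Metformin against Control, -0.44 (SE 0.069) for FK506 against Control and 0.055 for the combination against FK506. Metformin went with more Il3ra in the absence of FK506, and in its presence the groups overlapped.

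Kit, the receptor of stem cell factor (chr5:75574987-75656722), had the highest level of the 10 genes in FK506 libraries, with 23.5, 24.5 and 23.6 FPKM. The combination had 15.7, 15.7 and 16.3 FPKM, while Control libraries lay between 0.0640 and 0.132 and Metformin libraries between 0.0546 and 0.179. On the log2 scale Kit was higher by 7.79 (SE 0.16) with FK506 and by 7.23 with the combination, each against Control, and the combination was below FK506 by a log2 difference of -0.56 (SE 0.089). The groups with and without FK506 did not overlap, nor did the combination and FK506.

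Gata2, the zinc finger factor of progenitors, basophils and mast cells (chr6:88193891-88207032), was higher on average in the combination than with FK506 alone. FK506 libraries had 0.864, 1.19 and 0.793 FPKM and combination libraries 1.56, 1.53 and 1.08, so the groups overlapped. Control lay between 0.0516 and 0.0817 FPKM and Metformin between 0.0107 and 0.0923. The log2 difference was 3.59 (SE 0.37) for FK506 against Control, 4.18 for the combination against Control and 0.59 (SE 0.28) for the combination against FK506. Against Metformin it was 4.70, and 5.64 without Metformin replicate 3.

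**Figure D2:**
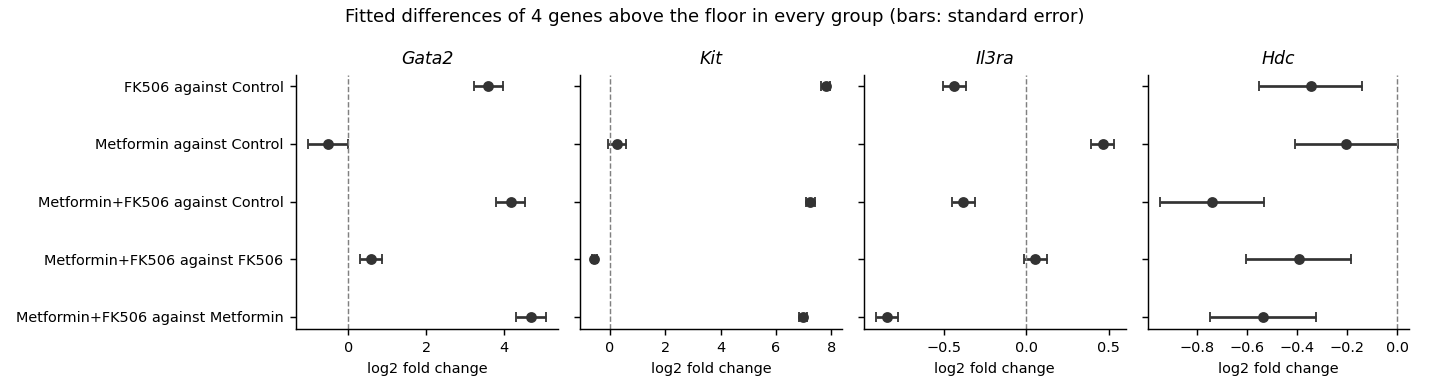
Fitted log2 fold changes (horizontal axis, a separate scale for each gene) of Gata2, Kit, Il3ra and Hdc in the 5 comparisons, with points for the estimate and bars for the standard error. Gata2 and Kit lie between 3.59 and 7.79 wherever FK506 was added to cells without it, and Il3ra and Hdc stay within 1 log2 unit of 0.

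The order of the levels differed between the genes. For Prss34, Mcpt8, Cpa3 and Fcer1a, FK506 was first and the other groups were at 0 counts, except for the 10 counts of Cpa3 in Control replicate 2. On those counts, in 1 of 3 Control libraries, rests the lower Cpa3 of the combination against Control in the fit without a filter. For Fcer1a, FK506 replicate 2 was at 0 as well. For Ms4a2 the order was FK506, Metformin, then Control and the combination at the floor, and for Cd200r3 it was FK506, the combination, Metformin, Control, the first pair overlapping in TMM-scaled CPM. For Kit it was FK506, the combination, then Metformin and Control, which overlapped, and for Gata2 the combination and FK506, which overlapped, then Control and Metformin. Il3ra was first with Metformin, then Control, FK506 and the combination, where FK506 overlapped with its neighbours and the combination lay below Control. For Hdc the groups overlapped except that the combination lay below Control. In TMM-scaled CPM, FK506 also lay below Control for Il3ra and Hdc, the combination below Metformin for Hdc, and Metformin overlapped with Control for Ms4a2.

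Across the 12 libraries the correlation of log2(FPKM + 1) was 0.995 between Prss34 and Mcpt8, 0.982 between Prss34 and Cpa3, and 0.636 between Mcpt8 and Kit. Such values describe 12 libraries in 4 groups and mostly restate the group means. Among the 14288 genes tested with at least 1 FPKM somewhere, and leaving aside the 10 genes themselves, the 3 most like Prss34 were Igkv8-34 (r = 0.996), Tmem39a (0.971) and Ighv1-20 (0.970). Igkv8-34, an immunoglobulin light chain variable segment, was also the nearest gene outside the 10 to Mcpt8 (0.991) and to Cpa3 (0.983), with a mean of 7.92 FPKM with FK506 and 0.163 in the combination. The next outside the 10 were Tmem39a and Egf for Mcpt8, and Ighv1-20 and Amigo2 for Cpa3. The genes nearest to Kit were Tbc1d9, Csf2rb and Tmem150c, and those nearest to Gata2 were Otud4, Arhgef28 and Atf7ip2. Il3ra was nearest to Gm6969, Etfdh and Gm8369, and Hdc to Rrp1, Gm10093 and 1700048O20Rik, the first at 0.905. The low genes had Grb7, Supt4a and Derl3 (Ms4a2), Igkv4-79, Igkv2-112 and C330007P06Rik (Cd200r3), and LOC115488456, Alkbh1 and Igkv4-63 (Fcer1a) as nearest genes.

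Genes that act around these receptors were then examined in lists that do not contain them, and tested by the quasi-likelihood test of edgeR, with p-values adjusted by Benjamini-Hochberg over all 15197 genes. In the IgE receptor signalling list, 9 of 11 genes rose and 2 fell with FK506 against Control, with a median log2 change of 2.81 against 0.024 over all genes tested. Of all genes tested 80.9% passed in that comparison (41.3% higher, 39.6% lower), so passing the threshold alone does not set this list or the following ones apart. In the following lists, Csf2rb, Csf2rb2, Kitl, Cebpa and Tal1, among others, met the filter only through libraries with FK506. Il3 and Il9 met it only through Control. For such genes the direction was largely fixed by the filter. Fcer1g, the gamma chain that FcεRI shares with Fc receptors of myeloid cells, rose by 6.53 on the log2 scale (SE 0.15, adjusted p = 4.35e-16). It had 0.518, 0.533 and 0.593 FPKM in Control, 62.7, 55.2 and 64.6 with FK506, and 68.3, 60.4 and 75.3 with the combination. The kinases Syk and Btk rose by 4.90 and 4.17, and Lcp2, the adaptor SLP-76 that T cells also use, had a log2 change of -1.05 (SE 0.032, adjusted p = 1.84e-14).

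Against FK506, 3 genes of this list rose and 5 fell with the combination, beside 15.6% and 15.0% of all genes tested. Fcer1g differed by a log2 value of 0.18 (SE 0.090, adjusted p = 0.142 by edgeR), so the gamma chain remained at 60.4 FPKM or above where the alpha and beta chains had 0 counts. Btk had a log2 change of -0.68 (SE 0.057, adjusted p = 2.02e-07) and Syk of -0.31 (SE 0.048, adjusted p = 1.17e-04), while Lcp2 rose by 0.24 (SE 0.032, adjusted p = 2.93e-05), each by edgeR's test. Syk fell from 40.1, 48.1 and 43.2 FPKM to 34.4, 32.6 and 36.3.

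Among the other receptors of the lineage, 8 of 11 genes tested rose and 2 fell with FK506 against Control (41.3% and 39.6% of all genes), with a median of 2.77. Csf2rb, the beta chain through which the receptors of IL-3, IL-5 and GM-CSF signal, rose by 7.73 (SE 0.084, adjusted p = 1.58e-19), from 0.353, 0.464 and 0.376 FPKM to 95.5, 100.4 and 102 FPKM. Csf2rb2, the IL-3 specific beta chain of mice, rose by 8.35 (SE 0.13, adjusted p = 5.63e-18), and the split of reads between these close paralogs is uncertain. In the combination Csf2rb was at 65.2, 61.1 and 70.2 FPKM, a log2 change of -0.57 against FK506 (SE 0.053, adjusted p = 6.72e-07), and Csf2rb2 differed by -0.15 (adjusted p = 0.140), both by edgeR. Il4ra, a receptor chain for IL-4 and IL-13, had a log2 change of -1.34 with FK506 against Control (SE 0.036, adjusted p = 4.08e-15). Il1rl1, the IL-33 receptor of mast cells and basophils, was at 0.133 to 0.554 FPKM in the 12 libraries. Of the IL-3 receptor, the alpha chain was thus present in every group, and the beta chains were below 1 FPKM in libraries without FK506.

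Of the growth and activating ligands, 7 of 9 genes tested were lower and 2 higher with FK506 against Control (39.6% and 41.3% of all genes), with a median of -4.84 (-4.79 with Il9 set to its bound). Il3, the growth factor of basophils, had 1.25, 1.16 and 1.38 FPKM in Control and 0.0633, 0.202 and 0.235 with Metformin. FK506 libraries had 0.134, 0 and 0 FPKM and combination libraries 0, 0.117 and 0. The log2 change was -4.79 with FK506 (SE 0.75, adjusted p = 1.97e-05), -2.87 with Metformin (SE 0.63, adjusted p = 9.71e-04) and -4.71 with the combination (SE 0.75, adjusted p = 2.34e-05), each against Control by edgeR. With DESeq2 the change with Metformin did not pass, at -2.90 (adjusted p = 0.068). Prss34 and Mcpt8 were thus detected in the FK506 libraries, where Il3 was at 0 to 0.134 FPKM.

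Il13, a type 2 cytokine, fell from 272 to 279 FPKM in Control to 9.80 to 11.5 with Metformin, 1.20 to 2.43 with FK506 and 1.18 to 2.02 with the combination, log2 changes of -4.76, -7.62 and -7.62 (adjusted p = 6.17e-15 or lower in each by edgeR). Il9, a mast cell growth factor, had 1.72, 1.97 and 2.00 FPKM in Control and 0 in each FK506 and combination library, at least 24.0-fold lower with FK506. Kitl, stem cell factor, was 1 of the 2 that were higher. It rose by 8.07 with FK506 against Control (SE 0.28, adjusted p = 1.16e-13) and again by 0.98 with the combination against FK506 (SE 0.14, adjusted p = 4.69e-05, edgeR). The levels were 3.25, 3.27 and 3.65 FPKM with FK506 and 6.40, 6.93 and 6.36 with the combination, against 0 to 0.0115 in Control. Kitl and its receptor Kit were thus both present in FK506-treated libraries, with the ligand higher and the receptor lower in the combination than with FK506 alone.

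**Figure D3:**
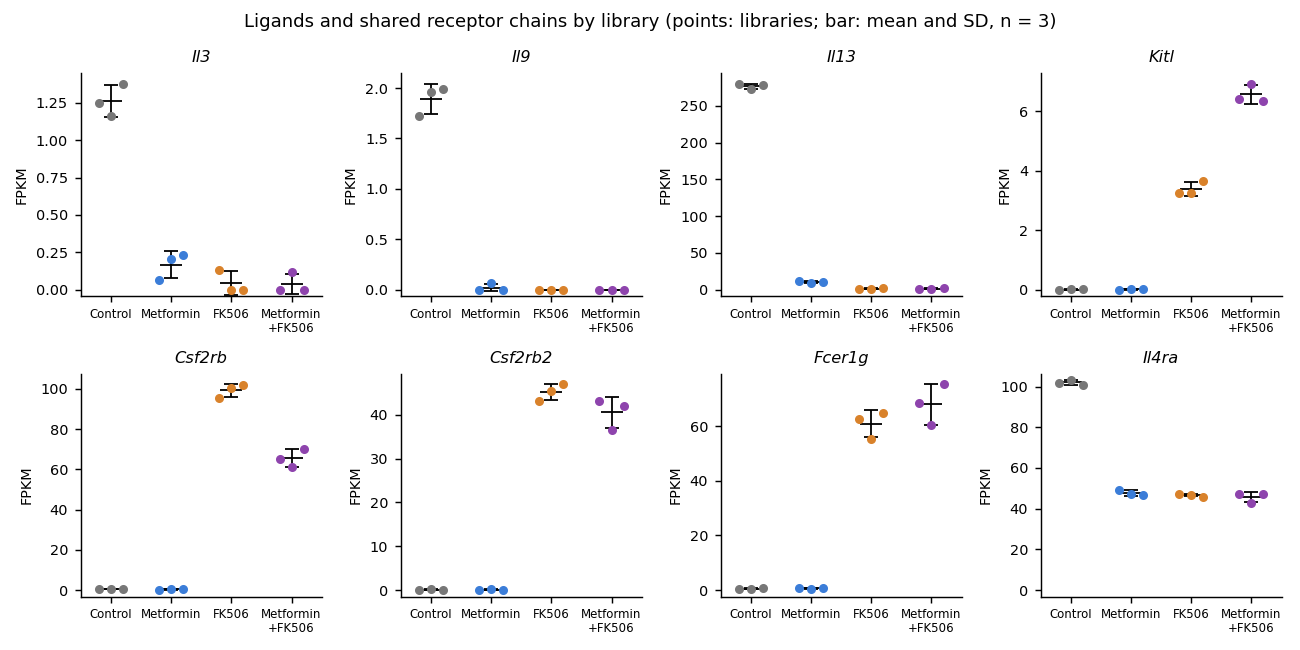
FPKM (vertical axis, linear, a separate scale for each gene) of 4 ligands and 4 receptor chains in the 12 libraries, by treatment; points are libraries and bars the mean and SD of 3. Il3, Il9 and Il13 are highest in Control, whereas Kitl, Csf2rb, Csf2rb2 and Fcer1g are high in the FK506 and combination libraries.

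Of the 5 histamine and lipid mediator genes tested, 4 rose and 1 fell with FK506 against Control (41.3% and 39.6% of all genes), with a median of 4.77. Among them, Alox5ap, Ltc4s and Ptgs1 met the filter only through libraries with FK506. Their rise, and with it the median, was thus largely fixed by the filter. Hpgds, the prostaglandin D2 synthase of mast cells and other blood cells, rose by 4.77 with FK506 (SE 0.13, adjusted p = 3.80e-15 by edgeR), and its levels were 8.84, 9.02 and 9.95 FPKM with FK506 and 8.50, 9.19 and 9.07 with the combination. Ptgs1, cyclooxygenase 1, was at 0 in Control and at 2.14 to 2.30 FPKM with FK506, at least 134-fold higher. Srgn, the proteoglycan core of granules, had a log2 change of -1.49. Alox5, the 5-lipoxygenase of leukotriene synthesis, was below the filter, with 87, 91 and 48 counts in FK506 libraries and 0, 23 and 0 in the combination.

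Among 9 lineage transcription factors tested, 6 rose and 2 fell with FK506 against Control (41.3% and 39.6% of all genes), with a median of 1.41. Cebpa, which directs granulocyte and basophil development, rose by 7.29 (SE 0.27, adjusted p = 1.77e-13 by edgeR). Tal1, a partner of GATA factors, was at 0 in Control and at 0.380 to 0.616 FPKM with FK506, and at 0.633 to 1.06 with the combination. Stat5a, which acts below the IL-3 receptor and in T cells, had a log2 change of -0.89 with FK506 (SE 0.039, adjusted p = 2.02e-12 by edgeR). Gata1 was at 0.544 to 0.688 FPKM in Control, 1.12 to 1.60 with Metformin, 0.572 to 0.687 with FK506 and 0.870 to 1.16 with the combination. Against FK506, 4 of the 9 rose and 1 fell with the combination (15.6% and 15.0% of all genes), but 1 rose without FK506 replicate 1 or without replicate 2, and 2 without Metformin+FK506 replicate 2.

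The defining genes of connective tissue and mucosal mast cells were near 0. In a list of 11 chymases, tryptases and mast cell receptors, 0 passed the filter, and the summed level was 0 to 0.0348 FPKM in Control, 0 in Metformin and combination libraries and 0.321 to 0.722 with FK506. Ctsg, cathepsin G, which neutrophil precursors also make, accounted for 0.379, 0.350 and 0.269 FPKM of that in FK506 libraries. Mcpt4 had 0.133 FPKM and Cma1 0.0268 in FK506 replicate 1 and 0 in replicates 2 and 3, and Tpsb2 had 0.142, 0 and 0.0523.

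Markers of several other cell types differed between the same groups, not all in the same direction. Macrophage markers, 10 genes, summed to 4.32 to 4.53 FPKM in Control (3 genes at 0), 8.43 to 9.74 with Metformin (4 at 0), 1244 to 1282 with FK506 and 792 to 910.5 with the combination. Between the latter groups the lower sum was mostly that of Lyz2, from a mean of 980.7 to 539.2 FPKM, while C1qa, C1qb, Csf1r, Adgre1, Cd68 and Mertk had higher means in the combination. B cell markers, 10 genes, summed to 51.9 to 54.1, 69.3 to 77.4, 833 to 882 and 408 to 439 FPKM in Control, Metformin, FK506 and combination libraries, and neutrophil markers, 9 genes, to 2.96 to 3.20, 0.0561 to 0.230, 36.8 to 47.5 and 22.6 to 24.7. The neutrophil sum in Control was nearly all Ly6g, which had a mean of 3.03 FPKM there and 0.175 with FK506, whereas 7 other genes of that list rose with FK506. Eosinophil markers, 6 genes, summed to 0.246 to 0.511 FPKM in Control, 0.371 to 0.618 with Metformin, 2.58 to 3.74 with FK506 and 3.52 to 4.92 with the combination. Most of that rise was Ear2, at 0 in Control and at a mean of 2.42 FPKM with FK506, and Ccr3 was also higher. Epx and Ear1 were at 0 in every library, and Prg2 and Siglecf overlapped between Control and FK506. Progenitor markers, 8 genes, summed to 0.992 to 1.16 FPKM in Control, 1.36 to 1.83 with Metformin, 40.2 to 44.5 with FK506 and 34.0 to 36.9 with the combination, and megakaryocyte and platelet markers, 7 genes, to 0.542 to 0.835, 1.47 to 1.73, 11.8 to 18.9 and 11.7 to 20.04. Flt3 held most of the progenitor sum, with a mean of 32.3 FPKM with FK506 and 21.7 in the combination. Cd34 went the other way, from 3.21 to 7.03, and Elane, Prtn3 and Ms4a3 stayed below 0.5 FPKM in every library. Of the platelet list, Pf4 went from 7.12 with FK506 to 11.25 in the combination, with libraries overlapping. Ppbp went from 3.17 to 1.09 and Treml1 from 0.598 to 0.189. In the NK cell, plasmacytoid dendritic cell and erythroid lists, the Control sum rested mostly on 1 gene, and other members differed from it in direction. The sums of 6 NK cell markers were 83.4 to 89.4 FPKM in Control, 110.6 to 121 with Metformin, 26.8 to 32.0 with FK506 and 31.3 to 33.0 with the combination, and those of 6 plasmacytoid dendritic cell markers were 290.9 to 298, 78.6 to 84.7, 63.5 to 69.8 and 73.9 to 78.9. Nkg7 held most of the NK cell sum in Control, with a mean of 81.8 FPKM against 11.9 with FK506, while Eomes, which T cells also express, rose from 1.22 to 13.6 FPKM. Bst2, which is also induced by interferon in many cells, held most of the plasmacytoid sum, with 290.4 FPKM in Control and 61.0 with FK506, while Tcf4 rose from 1.33 to 4.41 FPKM and Ccr9 from 0 to 0.594. Erythroid markers, 6 genes, summed to 2.00 to 2.08, 0.512 to 0.700, 0.838 to 1.35 and 1.60 to 2.36 FPKM in that order of groups, where Epor fell from a mean of 1.79 FPKM in Control to 0.236 with FK506 and Hbb-bs rose from 0 to 0.500. The T cell markers, 12 genes with Cd3e and Cd4 among them, lay between 2075 and 2547 FPKM in every library, so the defining markers of the labelled T cells were present throughout. The part of other cell types in the levels of the 10 genes was not tested.

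Taking genes with a mean of at least 0.5 FPKM with FK506, the ratio of the mean in the combination to that with FK506 had a median of 1.10 for 9 macrophage markers (0.550 to 1.20), 0.492 for 10 B cell markers (0.237 to 0.633) and 0.594 for 7 neutrophil markers (0.169 to 1.05). For 12 T cell markers it was 1.01 (0.835 to 1.54). Among 4 progenitor markers the ratio ran from 0.0118 for Mpo, the myeloperoxidase of granulocyte precursors, to 2.19 for Cd34, a surface protein of progenitors. For the 7 basophil and mast cell genes above that level it was 0 for Prss34, Mcpt8 and Cpa3, 0.667 for Kit, 0.747 for Hdc, 0.971 for Il3ra and 1.47 for Gata2. Genes of this set thus spanned the range from none detected to a higher mean than with FK506 alone. The higher mean was that of Gata2, whose FK506 and combination libraries overlapped.

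**Figure D4:**
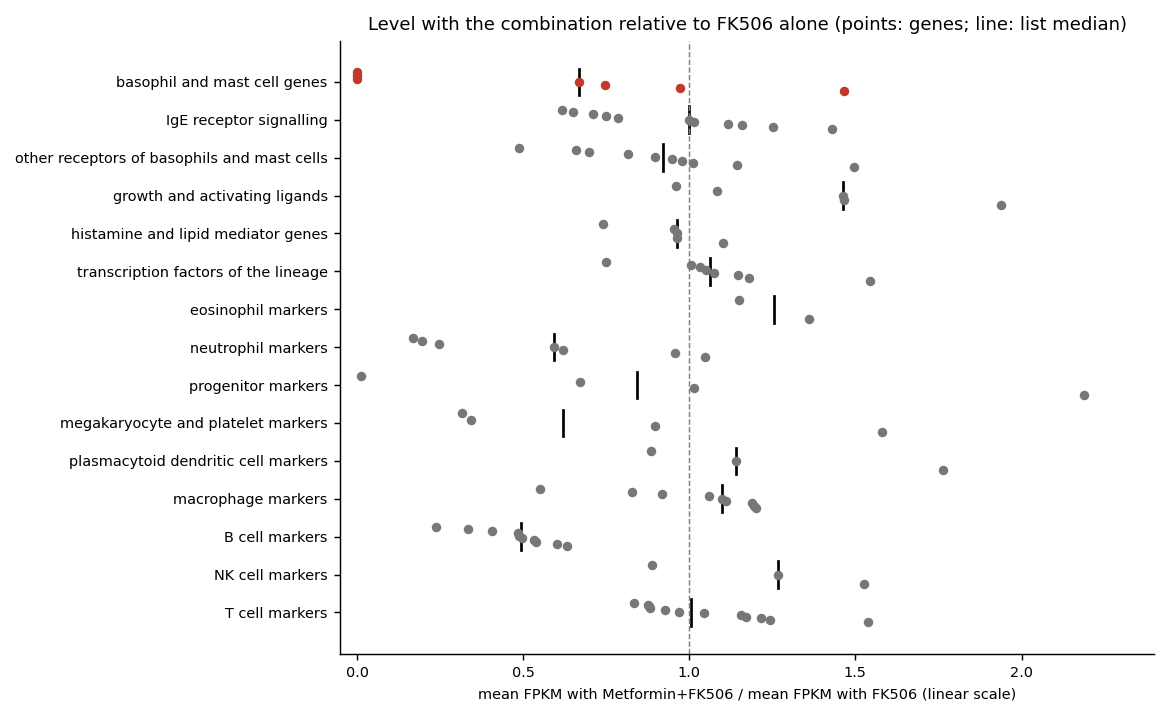
Ratio of mean FPKM with Metformin+FK506 to mean FPKM with FK506 (horizontal axis, linear) for each gene with at least 0.5 FPKM with FK506, by gene list; points are genes, short lines list medians, and the dashed line marks 1. The basophil and mast cell genes run from 0 (Prss34, Mcpt8, Cpa3) to 1.47 (Gata2), and the 10 B cell markers lie between 0.237 and 0.633.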

How the data were processed

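Poly(A) RNA of 12 libraries in 4 groups of 3 was used, grouped by the sample labels. The authors deposited, for each gene and library, a raw read count and an FPKM value. Columns named Tho were matched to Control through the description Th0, and 12 further per-sample columns were left unused. The submitters' processing notes name the build mm10, bcl2fastq 2.20.0, Trimmomatic, HISAT2 2.1.0 and StringTie 2.1.3b, without role or order. The treatment of multi-mapped reads and of strand is not given in the sources used here. FPKM is not adjusted for composition: tested on log2(FPKM + 1), the median of all genes shifts by 0.19 in FK506 against Control, 0.17 in the combination against Control and 0.14 against Metformin, whereas TMM scaling left at most 0.033.

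Counts were fitted with edgeR 4.0.16 (TMM, glmQLFit, glmQLFTest; R 4.3.3) over all 4 groups (8 residual degrees of freedom), with Benjamini-Hochberg adjusted p under 0.05 over 15197 genes. The standard error was taken as the log2 fold change divided by the square root of F. Tests were tried on simulated counts. Alternatives were other size factors, DESeq2 1.42.0, other filters, limma 3.58.1 on log2(FPKM + 1), log2(FPKM + 0.1) and quantile-normalized values, the 2 groups alone, a replicate block and leaving out each library. The 10 genes and the 16 lists (143 entries) were chosen with earlier results of these data known. Named were the 10 genes, up to 4 genes a pathway list (those with the highest and lowest change past the threshold and those needed to show its range), some markers of other cells, chosen after their values were seen, and the 3 most like genes by Pearson r. Coordinates and promoters are from RefSeq GRCm38.p6, where all 10 genes were found. Comparisons that share a group are not independent.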

Additional observations from a re-analysis of the deposited data

Results flagged for a closer look

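For some genes the difference in FPKM with a drug had one sign when it was given alone and the other when it was given on top of the second drug, taking each treated library against the mean of its reference group in FPKM. Single libraries could still overlap, as those of Hpgds did between FK506 and the combination. The values below are differences between group means in FPKM, and the difference between the 2 effects was not tested. For Ms4a2, metformin gave 0.0472 without FK506 and -0.155 with it, and FK506 gave 0.151 without metformin and -0.0512 with it. The difference of 0.0472 did not pass in the fit without a filter, and Metformin and Control overlapped in CPM. For Cd200r3 the difference was 0.0421 with metformin alone and -0.21 on top of FK506, where it did not pass in the fit without a filter and the groups overlapped in CPM. Of the signalling genes, Syk had 1.46 and -9.41, Btk 0.761 and -11.3, and Lcp2 -6.65 and 13.2, each without and with FK506. For Hpgds the values were 1.03 and -0.349, of which the second did not pass the test (adjusted p = 0.939 by edgeR), and for Stat5a they were -18.2 and 2.90. FPKM is not adjusted for composition, and the levels of Ms4a2 and Cd200r3 rest on few reads.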

How the results depend on the processing

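The number of the 10 genes past the threshold depended on the filter on low values and on the test. Without a filter it was 8 for FK506 against Control (5 with the filter), 2 for Metformin against Control (1 with it), 5 for the combination against FK506 (3 with it), and 6 for the combination against Control and against Metformin (4 with it in each). By contrast, the share of all genes called was lower without the filter, at 51.4%, 30.7%, 15.2%, 52.2% and 49.7% in that order. With a mean FPKM of at least 1 in place of the filter it was 3 for FK506 against Control, and 2 for the combination against Control, against Metformin and against FK506, since fewer genes were tested. With limma on log2(FPKM + 1) and on quantile-normalized values Gata2 was higher in the combination than with FK506 (adjusted p = 0.0362 and 0.0284, 0.133 by edgeR), and with the latter Hdc was lower with FK506 against Control (adjusted p = 3.8e-04, 0.131 by edgeR). Leaving out 1 library gave 1 to 2 for Metformin against Control, the 2 arising without Metformin replicate 3, where Gata2 differed by -1.47 on the log2 scale (-0.52 with every library). It gave 3 to 4 for the combination against FK506 and against Metformin. No pairing of libraries by replicate number was detected: correlations of same-number deviations ran from -0.0857 to 0.0539. With so few libraries a group, these correlations cannot show that same-number libraries had no shared source. With a replicate block, 12198 genes changed with FK506 against Control (12297 without it) and 4326 with the combination against FK506 (4660 without it). The log2 change of Il3 with Metformin against Control was -2.90 by DESeq2, with an adjusted p of 0.068 (from 2.58e-07 to 0.0131 in the other alternatives), and the cause was not tested. Low counts limit what can be said of Fcer1a, with at most 9 in a library, and of Ms4a2, with at most 34.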
